A study of Mus musculus with 20 samples.

Results

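MHC class II antigen presentation was followed in the mouse trachea through 10 genes. They were the class II chain genes H2-Aa, H2-Ab1 and H2-Eb1, the H2-DM genes H2-DMa, H2-DMb1 and H2-DMb2, the H2-O chain gene H2-Oa, the invariant chain gene Cd74, the transactivator gene Ciita, which the array names C2ta, and the protease gene Ctss. The members were 10 of the 27962 gene names on the array and were read through all probes of that name, 16 of 41174. Of the 16, 15 were measurable in enough samples to be tested, among 26064 probes tested in all, and every one of the 10 genes kept at least 1 tested probe.

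RNA came from 20 whole tracheas, 5 from each of 4 groups of C57/Bl6 mice labelled as 4 months old, with 1 one-colour Agilent array per trachea. Wild-type and Myd88KO mice were each examined without injury and after it. Injury was a dose of 2% polidocanol, a detergent that strips the airway epithelium, given 3 days before collection, and the uninjured mice were not dosed. Myd88 is the adaptor that relays signals from most Toll-like receptors and from the interleukin-1 receptor. The Myd88KO mice lacked it in every cell and were bred as a colony of their own beside a separate wild-type colony, so genotype and colony cannot be told apart. Per the methods the knockout line had been back-crossed to C57/Bl6 mice over several generations. Any donor DNA that remains cannot be told apart from genotype either. The study used male and female mice and the labels do not give the sex of each sample. The labels do not say whether replicates of a group shared a cage or litter, although the methods call them biological replicates. Levels below are log2 intensities relative to the 75th percentile of the same array, and differences are differences of these log2 levels, with standard errors (SE) or 95% confidence intervals from limma.

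Between 57.5% and 67.8% of probes were well above background on each array. All 6 airway epithelial markers and all 4 cartilage and smooth muscle markers examined were measurable. The single Myd88 probe read between 1.84 and 2.16 in uninjured wild-type and between 1.48 and 1.93 in uninjured Myd88KO tracheas, and between 2.24 and 2.68 and between 1.42 and 2.00 in the injured groups. Its difference between genotypes was -0.76 ± 0.14 (SE, adjusted p = 0.00838, limma) after injury and -0.22 ± 0.14 (adjusted p = 0.999) without injury. The sources used here do not say whether this probe falls inside the deletion, so it checks the labels weakly. The 20 arrays were on 5 slides, and each slide held the arrays of 1 replicate number from all 4 groups, so that replicate number and slide are the same thing below. Slides 2, 3 and 4 were scanned on one day and slides 1 and 5 on another.

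Class II molecules are the heterodimers with which dendritic cells, B cells, macrophages and, in the airway, some epithelial cells show peptides from engulfed protein to CD4 T cells. The alpha and beta chains assemble on the invariant chain in the endoplasmic reticulum. In the endosome cathepsin S, encoded by Ctss, trims the invariant chain to a last fragment, H2-DM exchanges that fragment for peptide, and H2-O restrains H2-DM. The genes of the chains, of the invariant chain and of H2-DM share promoter elements, an X box bound by the RFX complex and a Y box bound by NF-Y, on which the product of Ciita assembles, and Ciita itself is induced by interferon gamma.

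The members' own promoter sequences are shown because these shared elements tie the genes to 1 regulator. RefSeq promoter windows, from 250 bases before to 50 after the start site (GRCm38.p6), were matched by symbol for 7 of the 10 genes: H2-Aa, H2-Eb1, H2-DMa, H2-DMb1, H2-DMb2, H2-Oa and Ctss. In 5 of the 7, the letters AAC stood 27 or 28 bases before the letters ATTGG on the strand of the gene, with ATTGG ending between 38 and 85 bases before the start site. The stretches below run 5′ to 3′ on the strand of the gene, and capitals mark the AAC and the ATTGG, the letters of an inverted CCAAT box such as NF-Y binds.
H2-Aa, minus strand, chr17:34287847-34287927: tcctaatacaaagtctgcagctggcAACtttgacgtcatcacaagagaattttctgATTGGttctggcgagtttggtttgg
H2-Eb1, plus strand, chr17:34305753-34305832: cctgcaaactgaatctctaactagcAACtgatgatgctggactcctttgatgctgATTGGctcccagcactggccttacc
H2-DMb1, plus strand, chr17:34153074-34153154: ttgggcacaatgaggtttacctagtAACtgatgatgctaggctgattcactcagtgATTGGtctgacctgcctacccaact
H2-DMb2, plus strand, chr17:34145103-34145183: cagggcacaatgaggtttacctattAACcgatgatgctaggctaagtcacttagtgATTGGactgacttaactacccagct
H2-Oa, plus strand, chr17:34092280-34092360: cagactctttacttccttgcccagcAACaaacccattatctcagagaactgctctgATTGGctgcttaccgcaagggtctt
The pair of letter groups at this spacing occurred in 199 of 32851 promoter windows of the same length (0.606%) on the strand of the gene and in 427 (1.3%) on either strand. ATTGG alone occurred in 7249 windows (22.1%) on the strand of the gene. The pair and its spacing were chosen after the members' windows had been read, and a match describes letters and is no evidence of binding. H2-DMa has a window for each of its 2 start sites and neither held the pair, although the second held ATTGG, and the window of Ctss held no ATTGG on either strand. H2-Ab1, Cd74 and Ciita are not in the promoter table.

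The first comparison asked what injury did to these genes in wild-type tracheas. Injury left the class II chains near their uninjured levels, with differences between -0.06 and 0.11 for the 7 probes of H2-Aa, H2-Ab1 and H2-Eb1, while Ctss rose by 2.84 on the log2 scale, 7.16-fold. Of the 15 member probes tested, 1 passed the threshold of adjusted p under 0.01, against 5.16% of all 26064 probes, and 3 had an unadjusted p under 0.05, against 26.5% of all probes. The estimate was above 0 for 14 of the 15, against 48.3% of all probes, and the median difference was 0.11 for the members and -0.02 over all tested probes. In whole tissue, a change in the number of cells that carry a transcript and a change in the amount per cell cannot be told apart.

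H2-Aa encodes the alpha chain of the I-A molecule. Its first probe read 0.25, 0.49, 0.31, 0.36 and -0.25 in uninjured wild-type replicates 1 to 5 and -0.10, 1.06, -0.02, 0.47 and -0.59 in the injured ones. The injured values spanned a wider range on both sides of the uninjured values, and the difference was -0.06 (95% interval -0.66 to 0.53, adjusted p = 0.913, limma). The second H2-Aa probe gave 0.01 (interval -0.60 to 0.63).

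H2-Ab1, the partner beta chain, had 4 probes whose differences lay between 0.03 and 0.11. The probe that the array carries as 10 separate spots read 2.11, 2.33, 2.01, 2.17 and 1.64 in uninjured and 1.91, 2.81, 2.00, 2.25 and 1.47 in injured wild-type tracheas, with a difference of 0.04 (interval -0.47 to 0.54, adjusted p = 0.943). Its spots agreed closely within an array, with an SD between 0.0186 and 0.0526 over the 9 or 10 spots kept, whereas the SD between the 5 tracheas of a group was between 0.257 and 0.491. The spread in H2-Ab1 was thus mostly between arrays. H2-Eb1, the beta chain of the I-E molecule, differed by 0.11 (interval -0.27 to 0.50, adjusted p = 0.738). The I-E alpha chain gene H2-Ea was not well above background on any of the 20 arrays. H2-Eb1 is therefore read here as a transcript and not as a measure of the I-E molecule.

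Cd74 encodes the invariant chain, which fills the peptide groove until the endosome. It read 3.79, 3.42, 3.35, 3.78 and 3.74 in uninjured and 3.81, 4.36, 3.40, 3.98 and 3.65 in injured wild-type tracheas. The groups overlapped, with injured replicates 1, 2 and 4 above every uninjured value and the others within their range, and the difference was 0.22 (interval -0.17 to 0.62, adjusted p = 0.488).

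The H2-DM and Ciita probes leaned upwards and did not pass the threshold. H2-DMa, the alpha chain of the peptide exchanger, read -1.17, -1.27, -1.49, -1.18 and -1.31 in uninjured and -0.50, -0.35, -1.27, -0.77 and -0.87 in injured wild-type tracheas. All but the third injured trachea lay above every uninjured one, and the difference was 0.53 ± 0.20 (SE, unadjusted p = 0.0167, adjusted p = 0.0942, limma), above 0 on 5 of 5 slides. Ciita read -1.48, -2.16, -2.06, -2.01 and -1.11 in uninjured and -0.70, -0.84, -1.23, -1.81 and -1.18 in injured wild-type tracheas, with the groups overlapping and a difference of 0.61 ± 0.22 (unadjusted p = 0.0122, adjusted p = 0.0769). H2-DMb1 and the tested probe of H2-DMb2, the 2 H2-DM beta chains, both differed by 0.39 (adjusted p = 0.272 and 0.253). For H2-Oa, the alpha chain of the H2-DM inhibitor, the 2 probes differed by 0.05 and 0.09.

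Ctss encodes cathepsin S, the protease that removes the invariant chain in dendritic cells, B cells and macrophages. It read 3.83, 3.12, 2.66, 3.04 and 3.33 in uninjured wild-type tracheas and 5.96, 5.29 and 6.87 in injured replicates 2, 4 and 5. The spots of injured replicates 1 and 3 were marked as outliers by the scanner software and left out of the fit, so the injured group holds 3 values, all above the 5 uninjured ones. In this comparison 12.5% of all tested probes had groups that did not overlap. The difference was 2.84 (95% interval 1.61 to 4.07, adjusted p = 0.00443, limma), and it was 2.83, 2.24 and 3.54 on the 3 slides where both values exist. With the marked spots kept, an alternative chosen after seeing the data, injured replicates 1 and 3 read 6.68 and 4.69, and the difference was 2.70 (adjusted p = 0.00251). With the slide as a replicate block the difference was 2.75 with an adjusted p of 0.0166, which misses the threshold of 0.01. The threshold was also missed when uninjured replicate 2 (adjusted p = 0.0121) or 4 (adjusted p = 0.0123), or injured replicate 2 (adjusted p = 0.0147) or 5 (adjusted p = 0.0264), was left out.

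**Figure D1:**
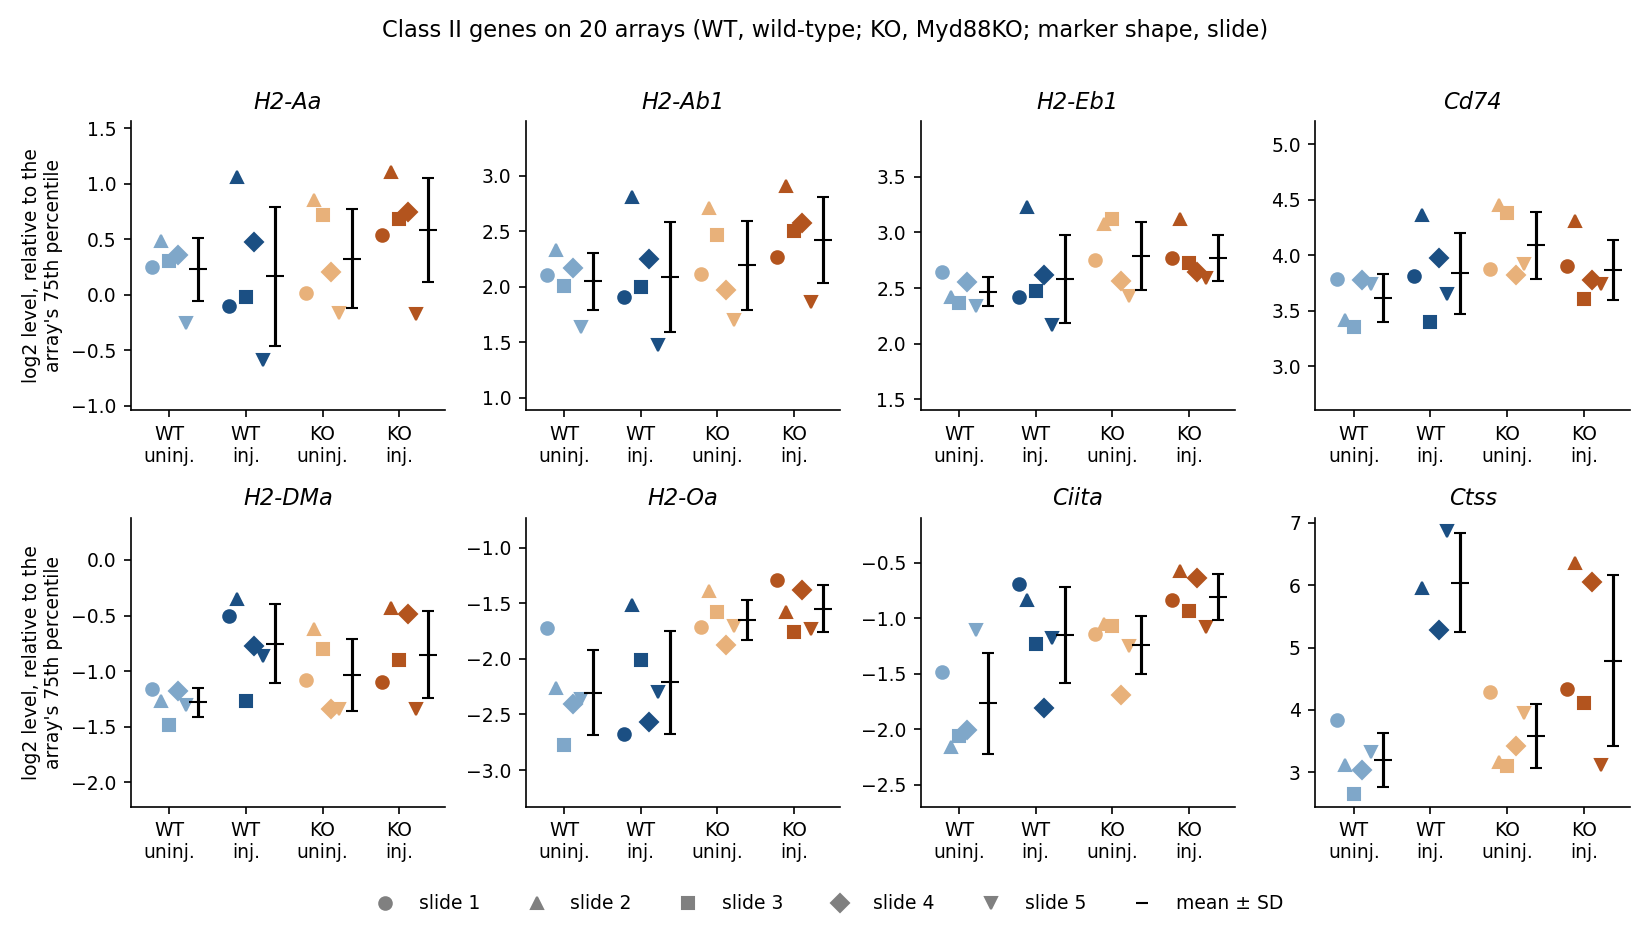
Log2 levels of 8 member genes, relative to the 75th percentile of each array, in the 4 groups (5 tracheas each, marker shape giving the slide, bars giving mean ± SD, and for H2-Aa, H2-Ab1 and H2-Oa 1 probe of several). The injured wild-type tracheas overlap the uninjured ones for H2-Aa, H2-Ab1, H2-Eb1 and Cd74 and stand above them for Ctss, where 2 injured wild-type values are missing because their spots were marked as outliers.

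The other genes of the pathway were counted in the same comparison. Of the 8 proteases and reductases of endosomal processing, all 8 were tested and 6 rose after injury in wild-type tracheas, with a median difference of 1.12 against -0.02 over all probes. The lowest p-values in that list belonged to Ctsz, a carboxypeptidase (1.16 ± 0.19, adjusted p = 0.00115), Lgmn, the asparagine endopeptidase that opens the cutting of the invariant chain (1.81 ± 0.31, adjusted p = 0.0012), Ctsb, a cysteine protease (1.08 ± 0.21, adjusted p = 0.00242), and Ctsc, which activates granule proteases (1.64 ± 0.33, adjusted p = 0.0034). For Ctsb, and for Ctsd among the 6, only 1 of the 2 probes passed the threshold. The other Ctsd probe gave 0.69 (adjusted p = 0.201, limma).

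Of the interferon gamma axis upstream of Ciita, 10 of 12 genes were tested and 2 rose, Irf8, a transcription factor of the myeloid lineage (0.98 ± 0.19, adjusted p = 0.00236, 1 of its 2 probes past the threshold), and Tgfb1, which restrains Ciita (1.42 ± 0.31, adjusted p = 0.00554). Irf1, which acts on a promoter of Ciita, differed by 0.54 (adjusted p = 0.0276). Ifng itself was not tested, since its 2 probes were well above background on 2 and 4 of 20 arrays.

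By the brightest probe of each gene, none of the 7 tested cofactors and rare chains passed the threshold, and 1 of the 7 had an unadjusted p under 0.05. The lowest p-values there belonged to Nfya (0.27, adjusted p = 0.122), Rfxap (0.18, adjusted p = 0.408), Creb1 (-0.33, adjusted p = 0.441) and Nfyc (0.21, adjusted p = 0.558), which encode proteins that sit on the X and Y boxes. Other probes gave 0.58 (adjusted p = 0.0294) and 0.38 (adjusted p = 0.127) for Creb1, against the sign of its brightest probe, and -0.40 (adjusted p = 0.243) for Rfxap, also of opposite sign, while the second Nfya probe gave 0.57 (adjusted p = 0.0389). Of the ubiquitin ligases and costimulatory molecules 6 of 8 were tested and none passed, with 3 at an unadjusted p under 0.05. Those of lowest p were Cd86, a ligand of CD28 (1.51, adjusted p = 0.0207), March1, a ligase that removes class II from the surface (1.20, adjusted p = 0.0265), Cd40, a receptor for T cell help (1.03, adjusted p = 0.0513), and Icosl (0.21, adjusted p = 0.355).

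Markers of leukocytes and of airway epithelium, among them cells that carry class II, were read for wild-type injury as well. Of 8 macrophage markers 5 rose after injury in wild-type tracheas, with a median of 1.64 and Cd68 as the highest (3.25 ± 0.53, adjusted p = 0.000901). Their summed level, in multiples of the array's 75th percentile, was 8.25 to 11.5 in uninjured and 19.3 to 50.5 in injured wild-type tracheas. Of 3 pan-leukocyte markers 2 rose, and the sum of the 3 was 3.21 to 6.08 in uninjured and 9.53 to 23.4 in injured wild-type tracheas. Of 8 dendritic cell markers 4 were tested and 2 rose, Ccr7 (2.45) and Itgax (1.56), whose second probe gave -0.73. Flt3 and Xcr1 gave 0.00 and -0.21, Clec9a was not well above background on any array, and Cd209a was above it on 6. Of 8 B cell markers 3 were tested and none rose, and Pax5 was not above background on any array. Of the 6 airway epithelial markers 1 fell, Scgb1a1 of the secretory cells (-7.93 ± 0.69, adjusted p = 1.09e-05), and Krt8, a keratin of luminal cells, differed by 0.82 (adjusted p = 0.0361). The part of these cells in the values of the class II genes was not tested.

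**Figure D2:**
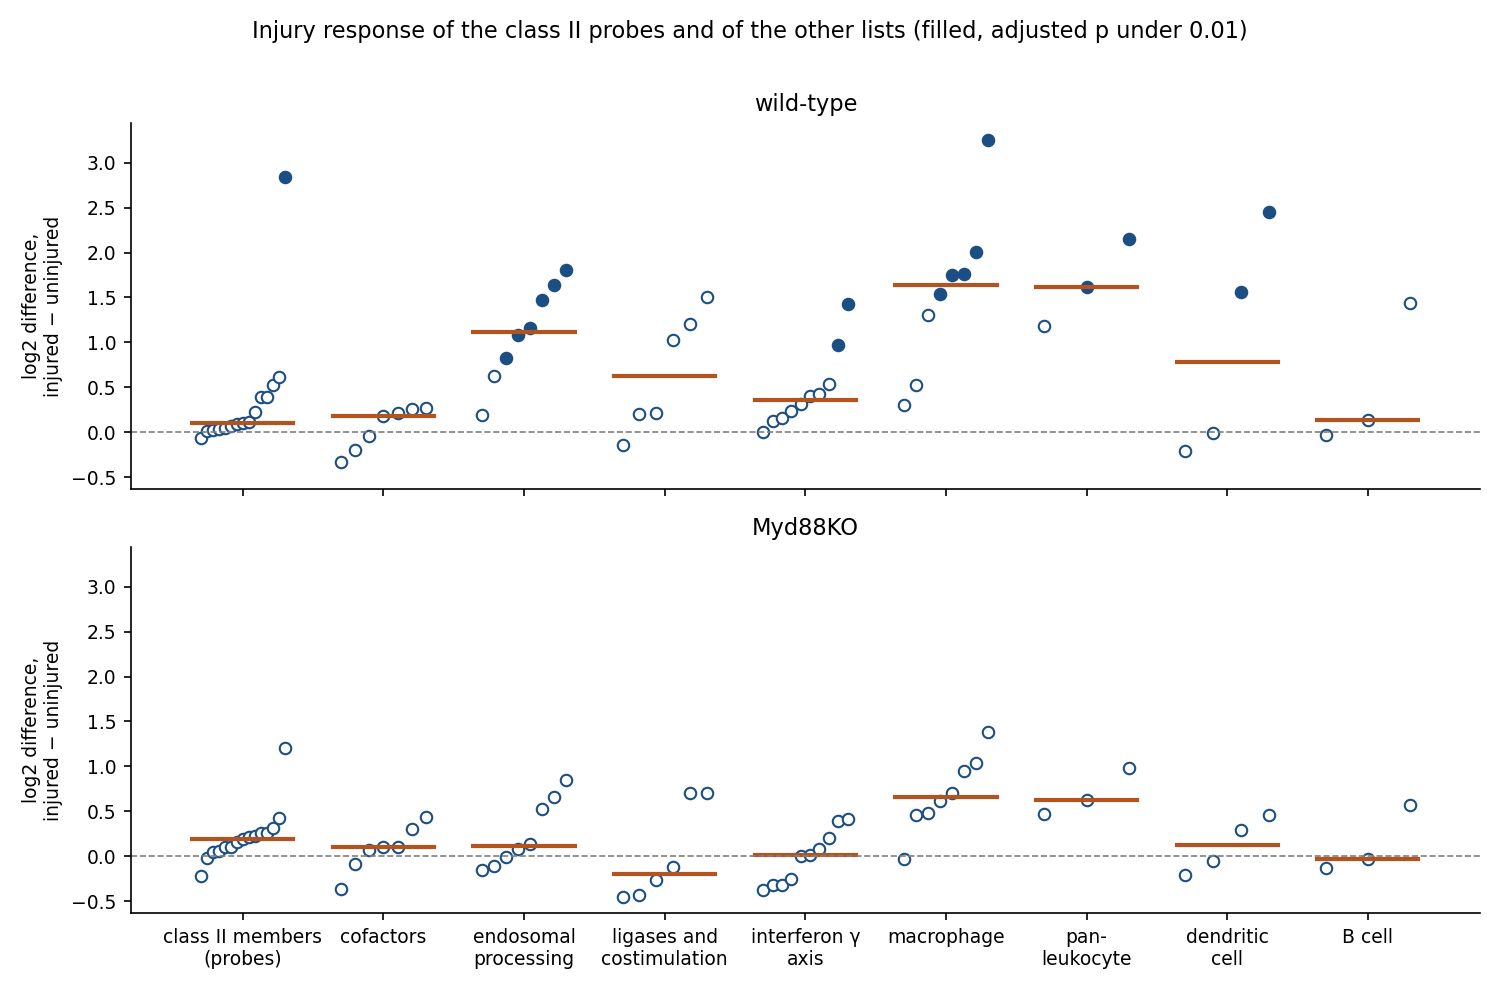
Log2 difference between injured and uninjured tracheas in wild-type (top) and Myd88KO mice (bottom) for the 15 member probes and for the tested genes of 8 other lists, 1 point per probe or gene and a line at each median, with filled points at an adjusted p under 0.01. In wild-type tracheas the median is 1.64 for the macrophage list, 1.12 for endosomal processing and 0.11 for the members, where Ctss alone is filled.

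The second comparison asked the same of Myd88KO tracheas. No member probe passed the threshold, against 0.372% of all probes, and 1 of the 15, Ctss, had an unadjusted p under 0.05, against 19.7% of all probes. The estimate was above 0 for 13 of 15, against 41.6%, with a median of 0.19 for the members and -0.08 over all probes. The groups overlapped for all 15, against 3.5% of all probes without overlap. H2-Aa read 0.01, 0.85, 0.71, 0.21 and -0.17 in uninjured and 0.54, 1.11, 0.68, 0.74 and -0.17 in injured Myd88KO tracheas, a difference of 0.26 (interval -0.34 to 0.85, adjusted p = 0.665). Cd74 differed by -0.22 (interval -0.62 to 0.17) and Ciita by 0.43 (interval -0.03 to 0.90, adjusted p = 0.294), with Ciita above 0 on 5 of 5 slides.

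Ctss divided the injured Myd88KO tracheas. It read 4.28, 3.16, 3.11, 3.42 and 3.95 in the uninjured and 4.33, 6.35, 4.11, 6.05 and 3.12 in the injured Myd88KO replicates 1 to 5. Replicates 2 and 4 lay within the injured wild-type range, and replicates 1, 3 and 5 lay within or just above the uninjured range, with replicate 5 close to its lower end. The difference was 1.21 ± 0.50 (SE, unadjusted p = 0.0281, adjusted p = 0.196, limma), and it was 0.82 (adjusted p = 0.387) without replicate 2, 0.89 (adjusted p = 0.46) without replicate 4 and 1.63 (adjusted p = 0.0277) without replicate 5. With array weights it was 1.79 (adjusted p = 0.00979), past the threshold. Slides 2, 3 and 4, scanned together, gave 2.28, and slides 1 and 5 gave -0.40, whereas in wild-type tracheas the 2 scan days gave 2.68 and 3.29. Each scan day lacks 1 injured wild-type value, so the wild-type figures rest on fewer arrays.

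The macrophage markers divided the same tracheas. Their summed level was 12.7, 29.7, 11, 29.3 and 7.32 in injured Myd88KO replicates 1 to 5, against 7.91 to 13.9 in uninjured Myd88KO tracheas, and the pan-leukocyte sum was 7.52, 12.8, 5.17, 12.8 and 3.96. Replicates 2 and 4 were again the high ones and replicate 5 the lowest. None of the 8 macrophage markers passed the threshold in Myd88KO tracheas and 3 had an unadjusted p under 0.05. H2-Aa, at 0.54, 1.11, 0.68, 0.74 and -0.17, was also highest in replicates 2 and 4 and lowest in replicate 5 of this group. This H2-Aa probe was, however, highest in replicate 2 and lowest in replicate 5 in all 4 groups, the uninjured ones included. In the injured wild-type group its lowest values, -0.59 and -0.10, came from replicates 5 and 1, which had the highest macrophage sums of the study, 44.2 and 50.5. The part of these cells in the Ctss and H2-Aa values was not tested.

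**Figure D3:**
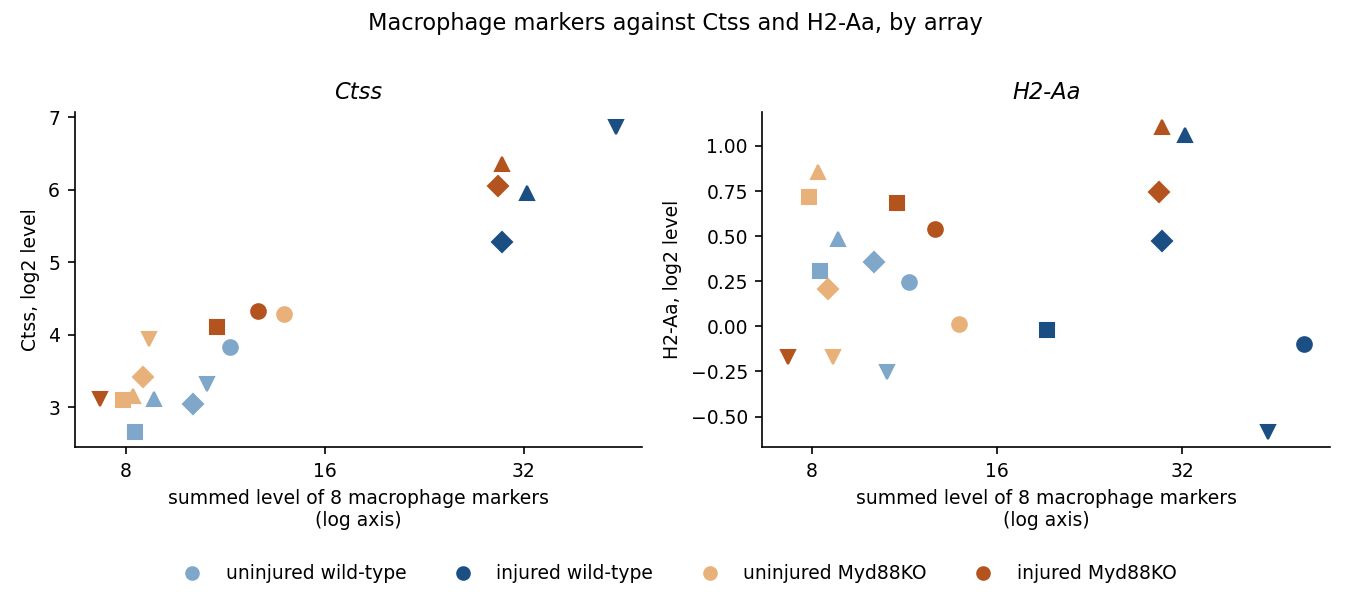
Log2 levels of Ctss (left) and of the first H2-Aa probe (right) against the summed level of 8 macrophage markers (log axis, in multiples of each array's 75th percentile), 1 point per trachea, with colour giving the group and marker shape the slide (circle 1, upward triangle 2, square 3, diamond 4, downward triangle 5). The 5 tracheas with a Ctss value and a marker sum of 29.3 or more all read 5.29 or higher for Ctss, all others read 4.33 or lower, and H2-Aa at sums of 19.3 or more ranges from -0.59 to 1.11.

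The third comparison set uninjured Myd88KO against uninjured wild-type tracheas. The estimate was higher in Myd88KO for each of the 15 member probes, by 0.05 to 0.65 with a median of 0.26, against 55.7% of all probes higher and a median of 0.03. None passed the threshold, against 0.376% of all probes, and 4 of 15 had an unadjusted p under 0.05, against 5.56%. The 15 estimates come from the same 10 arrays and from genes that vary together, so they are not independent of each other.

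The largest of these differences belonged to H2-Oa. Its first probe read -1.72, -2.26, -2.77, -2.40 and -2.36 in uninjured wild-type and -1.71, -1.39, -1.58, -1.87 and -1.70 in uninjured Myd88KO tracheas. The wild-type value of replicate 1 lay inside the Myd88KO range and the other 4 below it. The difference was 0.65 ± 0.21 (SE, unadjusted p = 0.00568, adjusted p = 0.358, limma), and the second probe gave 0.54 ± 0.20 (adjusted p = 0.547). The first probe was higher in Myd88KO on 5 of 5 slides, by 0.00 to 1.19, and the second on 4 of 5.

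Cd74 was the only member whose uninjured groups did not overlap, against 2.43% of all probes. Its values were 3.35 to 3.79 in wild-type and 3.88, 4.46, 4.38, 3.82 and 3.92 in Myd88KO tracheas, with a difference of 0.47 (interval 0.08 to 0.87, unadjusted p = 0.021, adjusted p = 0.684). The differences on slides 2 and 3 were 1.04 and 1.02, and those on slides 1, 4 and 5 were 0.09, 0.04 and 0.18. Ciita had a like shape, with 1.11 and 1.00 on slides 2 and 3, 0.34, 0.32 and -0.14 on slides 1, 4 and 5, and a difference of 0.52 (interval 0.06 to 0.99, adjusted p = 0.772). H2-Eb1 differed by 0.32 (interval -0.06 to 0.71), with 0.66 and 0.75 on slides 2 and 3 and 0.01 to 0.11 elsewhere. H2-Aa and H2-Ab1 differed by 0.05 to 0.26 over their 6 probes, with every interval spanning 0.

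Marker lists of cells that carry class II, and of T cells, to which class II shows peptides, were read in the same arrays. The dendritic cell sum was 0.665, 0.426, 0.573, 0.582 and 0.537 in wild-type and 1.18, 0.584, 0.787, 1.11 and 1.03 in Myd88KO tracheas, so that 4 of the 5 Myd88KO values lay above every wild-type one. Of its 4 tested markers 1, Itgax, had an unadjusted p under 0.05 (1.04, adjusted p = 0.424, with 0.53 from its second probe). Itgax was the brightest of the 4, at mean levels of -1.58 in wild-type and -0.54 in Myd88KO tracheas, so it weighs most in the sum. Ccr7 differed by 0.53, while Flt3 and Xcr1 went the other way, at -0.14 each. Replicates 2 and 3, where Cd74 differed most, had the lowest dendritic cell sums of the Myd88KO group. The macrophage sum overlapped, 8.25 to 11.5 in wild-type and 7.91 to 13.9 in Myd88KO tracheas, and none of its 8 markers had an unadjusted p under 0.05. The B cell sum overlapped too, 0.242 to 0.753 in wild-type and 0.429 to 0.796 in Myd88KO tracheas. None of its 3 tested markers had an unadjusted p under 0.05 (limma). The T cell sum overlapped, 0.781 to 2.81 against 1.09 to 2.92, with a median difference of 0.59 over its 8 markers and 2 of them at an unadjusted p under 0.05. Of 5 thymus markers 2 were tested, and their sum overlapped as well, 0.914 to 2.06 against 0.877 to 3.03. Both sums were highest in Myd88KO replicate 4, at 2.92 and 3.03. Whether thymus tissue had a part in the T cell values was not tested. The part of any of these cells in the class II values was not tested.

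The fourth comparison set injured Myd88KO against injured wild-type tracheas. No member probe passed the threshold, against 0.38% of all probes, 3 of 15 had an unadjusted p under 0.05, against 12.5%, and none was free of overlap, against 2.01%. The estimate was above 0 for 12 of 15, against 45.9%, with a median of 0.29 for the members and -0.03 over all probes. Both H2-Oa probes were higher in Myd88KO again. The first read -2.67, -1.52, -2.01, -2.56 and -2.30 in injured wild-type and -1.29, -1.58, -1.75, -1.38 and -1.73 in injured Myd88KO tracheas, so that replicate 2 of the wild-type group alone lay among the Myd88KO values. The difference was 0.66 ± 0.21 (unadjusted p = 0.00491, adjusted p = 0.179, limma), and the second probe gave 0.59 ± 0.20 (adjusted p = 0.209). The injured groups are other tracheas than the uninjured ones, so the 2 genotype differences of H2-Oa, 0.65 and 0.66 for the first probe, share no array, although they share the colonies and the slides.

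H2-Aa and H2-Ab1 were 0.21 to 0.42 higher in injured Myd88KO tracheas over their 6 probes, with no adjusted p below 0.582. The first H2-Aa probe was higher on 5 of 5 slides, by 0.05 to 0.70. Cd74 differed by 0.03 (interval -0.37 to 0.42) between the injured groups. Ctss was the member furthest below 0, at -1.25 ± 0.58 (unadjusted p = 0.0465, adjusted p = 0.389), with -0.12 on slides 2, 3 and 4 and -3.15 on slides 1 and 5, where each scan day lacks 1 injured wild-type value. Endosomal processing genes lay below 0 beside it, with a median of -0.81 and 6 of 8 at an unadjusted p under 0.05, and so did the macrophage markers, with a median of -1.02 and 5 of 8, although none of either list passed the threshold.

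**Figure D4:**
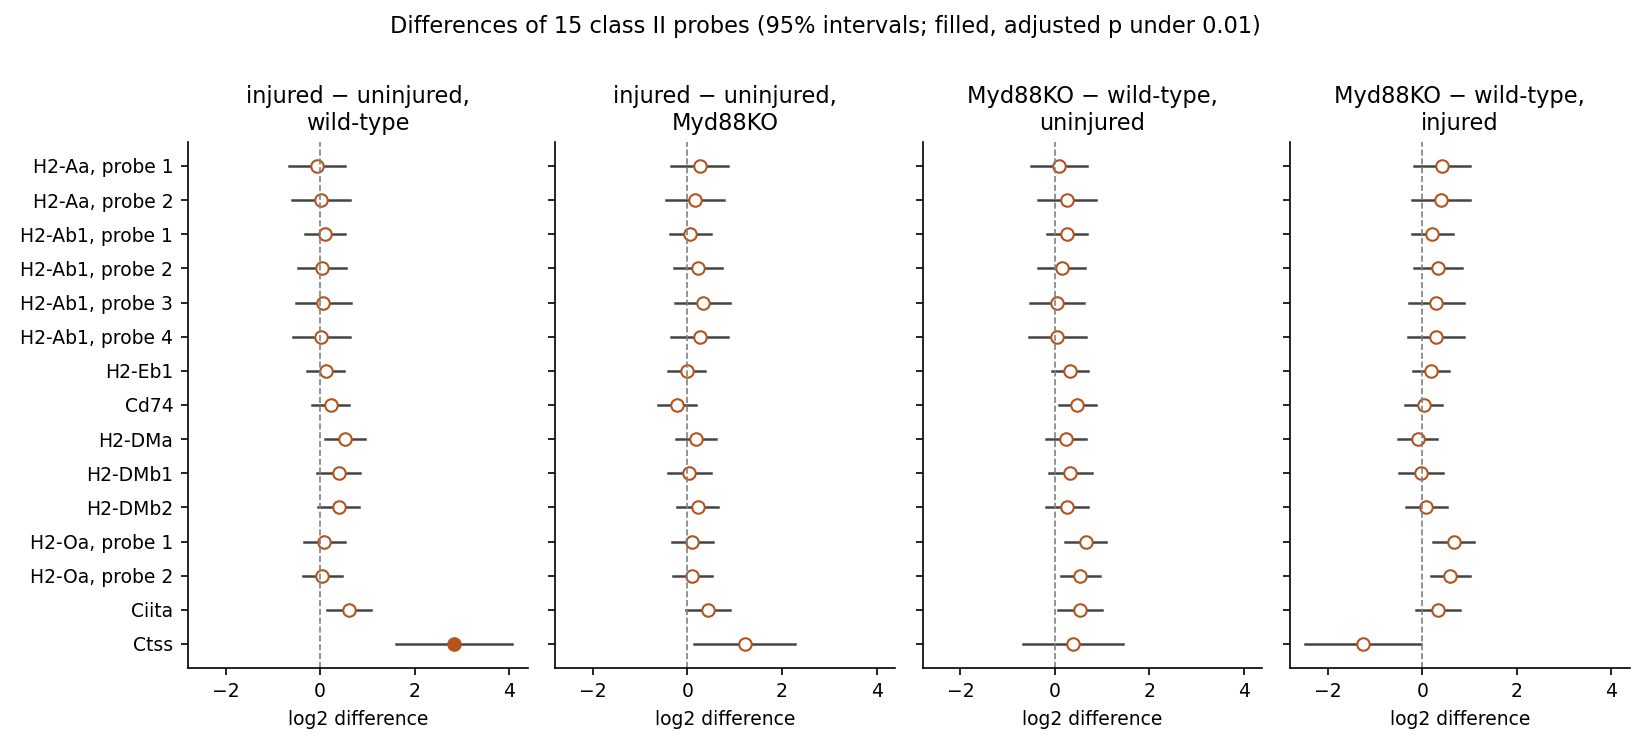
Log2 differences with 95% intervals for the 15 tested member probes in the 4 comparisons between groups, with a filled point at an adjusted p under 0.01. Ctss in wild-type injury, at 2.84, is the only filled point, and both H2-Oa probes lie above 0 in both comparisons of genotype, by 0.54 to 0.66.

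The last comparison asked whether injury acted differently in the 2 genotypes. No probe of any gene passed the threshold for this difference (0%), and the smallest adjusted p over the 26064 probes was 0.18. Of the members 1 of 15, Ctss, had an unadjusted p under 0.05, against 10.2% of all probes, and 7 of 15 estimates were above 0, against 42.2%, with a median of -0.05 for the members and -0.08 over all probes. The injury response of Ctss was smaller in Myd88KO tracheas by an estimate of -1.63 ± 0.77 (SE, unadjusted p = 0.0484, adjusted p = 0.488, limma), with -0.41 on one scan day and -3.68 on the other. Here too each scan day lacks 1 injured wild-type value. The response of Cd74 differed by -0.45 (SE 0.27, adjusted p = 0.564), and those of H2-Aa by 0.32 and 0.14. These 5 comparisons share groups, so their values are not independent of each other.

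The levels of the class II chains H2-Aa and H2-Ab1 followed the slide. In all 4 groups both H2-Aa probes were highest on slide 2 and lowest on slide 5, and the same held for 2 of the 4 H2-Ab1 probes. The mean over the 4 groups of the first H2-Aa probe was 0.18, 0.88, 0.42, 0.45 and -0.29 on slides 1 to 5, so that slide 2 stood 1.17 above slide 5, more than any difference between groups for this gene. The slide accounted for 82.7% and 84.1% of the variance within groups of the H2-Aa probes and for 70.2% to 86.4% of that of the H2-Ab1 probes, against a median of 38.8% over all tested probes. The share was 66.9% for H2-DMb2, 66.2% for H2-DMb1, 55.6% for H2-Eb1, 42.6% for H2-DMa, 34.5% for Cd74, 29.5% for Ciita, 21.7% and 22.8% for H2-Oa and 14.1% for Ctss. The upper quartile over all tested probes was 56.7%, which the share of H2-Eb1 did not reach. The share is not corrected for the number of slides and is above 0 without any slide effect. Of all tested probes, 1.73% had a share at or above that of the H2-Ab1 probe with 10 spots. Since a slide held 1 mouse of each group, what the mice and the processing of 1 replicate number had in common cannot be told apart from the slide. With the slide as a block the adjusted p of the first H2-Aa probe between the injured genotypes was 0.205 in place of 0.582 and that of the H2-Ab1 probe with 10 spots was 0.21 in place of 0.605, and no member probe passed the threshold in any comparison.

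**Figure D5:**
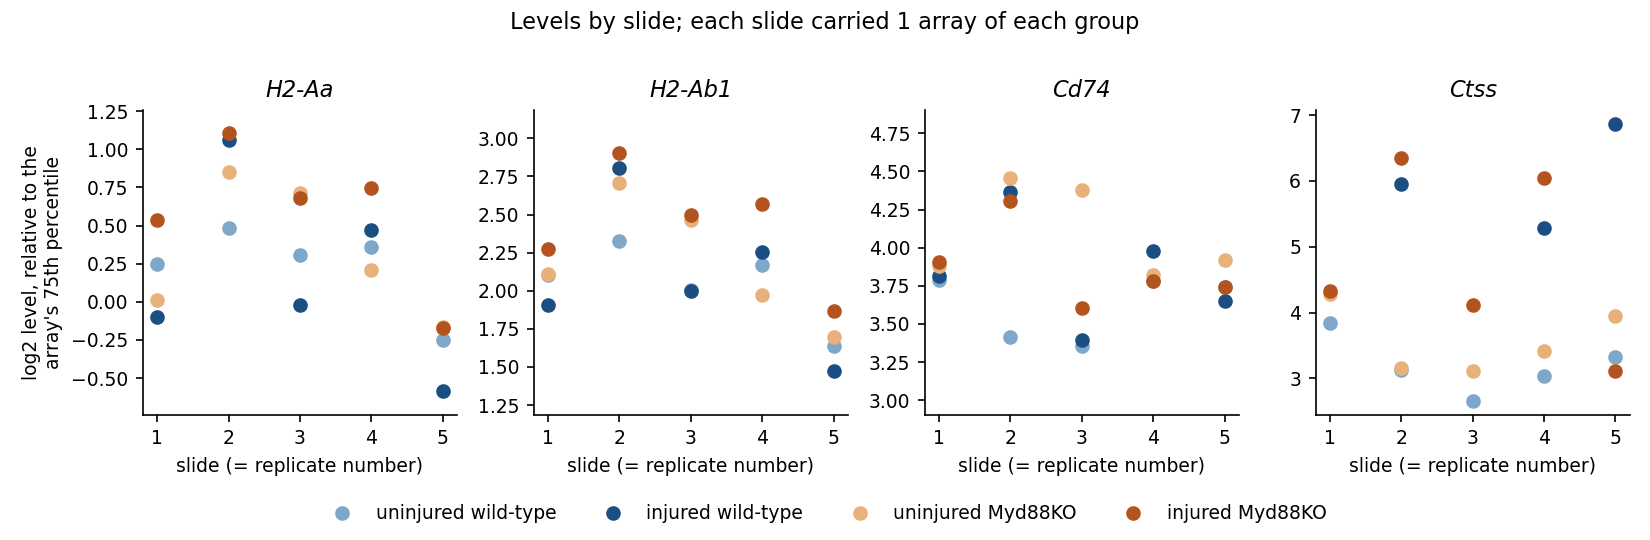
Log2 levels of H2-Aa, H2-Ab1, Cd74 and Ctss by slide, with 1 point per array and colour giving the group. For the probes drawn, the first of H2-Aa and the H2-Ab1 probe with 10 spots, the arrays of slide 2 are the highest and those of slide 5 the lowest of every group, and for Ctss the slides have no common order.

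The members did not all vary together within groups. A core profile was taken as the mean of the brightest probes of H2-Aa, H2-Ab1, H2-Eb1 and Cd74 after each array was expressed as its difference from its group mean. Over the arrays with a value, 20 for each gene but Ctss, which had 18, the Pearson correlation with this profile was 0.77 for H2-DMb2, 0.74 for H2-DMa, 0.56 for H2-Oa, 0.24 for Ciita, 0.22 for H2-DMb1 and 0.10 for Ctss. After the slide means were also removed these were 0.49, 0.52, 0.49, 0.43, 0.55 and -0.05. Of the genes with the AAC and ATTGG pair shown above, H2-DMb2 was close to the profile and H2-DMb1 was far from it before slide means were removed. These values describe arrays that share slides, and without the 2 arrays furthest from the middle of the profile, both of slide 2, they were 0.71, 0.65, 0.42, 0.06, 0.24 and -0.11.

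Outside the members, 17860 genes were ranked by the same correlation. The most alike was H2-Q1, a class I gene of the same complex (Pearson 0.88, Spearman 0.91), and H2-D1, a classical class I heavy chain, came next but one (0.84 and 0.85). Others of the first 10, in order, were AK005018 (0.86), ENSMUST00000077662 (0.83), NAP029125-1 (0.83), Nubp2 (0.83), 5730494M16Rik (0.81), Tmed10 (0.81) and Ddx18 (0.81). With the slide means removed as well, H2-Q1 kept a correlation of 0.76, H2-D1 one of 0.70 and AK005018 one of 0.91, and the others lay between 0.59 and 0.79. Without the same 2 arrays the 10 correlations lay between 0.68 and 0.85. These genes differed by no more than 0.41 after injury in wild-type tracheas and none passed the threshold there.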

How the data were processed

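Scanner files of 20 one-colour Agilent arrays were used, with groups and replicate numbers from the sample titles. The deposited intensity of each of 45018 spots was, per the file headers, made by Agilent Feature Extraction 9.5.1.1, background-subtracted and not scaled between arrays. The deposited value table gave those intensities to fewer digits (table over scanner 0.995 to 1, column medians 67.6 to 128). The genome build of the probe positions is not given in the sources used here. Per the methods the authors analysed these data in GeneSpring, required a transcript to be present in 50% of samples, and tested by one-way analysis of variance with Benjamini-Hochberg adjustment.

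Here 1639 control spots were left out, log2 intensity was taken minus the array's 75th percentile, 1960 values marked as outliers were dropped, and spots of a probe were averaged. Probes well above background on at least 10 of 20 arrays were fitted with limma 3.58.1 (R 4.3.3), all 4 groups in 1 fit, without a block, Benjamini-Hochberg adjusted within each comparison over 26064 probes, at an adjusted p under 0.01. The fit was tested on simulated data. For gene lists the brightest tested probe of a gene was counted, and sums leave out genes with a missing value. Named genes were every member probe, up to 4 genes of each pathway list by lowest p in wild-type injury, and the 10 genes most alike to the class II chains. Some genes that this rule names are not reported here. Cell type markers named in the text beyond the counts were chosen after their values were seen. The members and lists were chosen with earlier results of these data known. The number of arrays limits the precision.

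The replicate number marks the slide in the scanner headers. Deviations from the group mean of same-numbered arrays correlated between -0.262 and 0.476 over 30 pairs (median 0.242, 23 above 0.1), and the block is reported as an alternative. Figures were drawn with matplotlib 3.10.9.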

Additional observations from a re-analysis of the deposited data

Results flagged for a closer look

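A second H2-DMb2 probe stayed within background on the 10 uninjured and the 5 injured wild-type arrays and was well above it on 2 of the 5 injured Myd88KO arrays, replicates 2 and 4, where it read -4.95 and -4.87 relative to the 75th percentile. It was not tested, and its other values lay between -7.52 and -5.38. These are the tracheas of that group in which Ctss and the macrophage marker sum were also high. In injured wild-type replicates 1 and 5, with macrophage sums of 50.5 and 44.2, the probe read -5.38 and -6.57, within background. A link between this probe and the macrophage markers was not tested. The tested H2-DMb2 probe was well above background on all 20 arrays and read -0.60 and -0.60 on the same 2 arrays, the highest values of that group. No group of any member probe had a single trachea that stood apart from the other 4 by Dixon's criterion (critical value 0.71 for 5 samples), where chance alone would give about 1 in 20 groups.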

How the results depend on the processing

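Each comparison was recomputed under other choices of background correction, scaling, filter, block, weights, samples in the fit, test and threshold, with the deposited value table, without each array in turn and, chosen after seeing the data, with outlier spots kept. Over the 75 member differences and 1770 alternative values, 1763 stayed on the same side of the threshold, 6 fell below it, 1 went past it and no called value changed sign, while 91 values of differences that were not called did. All 7 that moved were of Ctss. The number of members called after injury in wild-type tracheas was 1, and it was 0 with the replicate block, 0 by the methods' one-way test with adjustment, and 0 to 1 when arrays were left out. Ctss was called in 16 of 22 such settings, with differences of 2.42 to 3.22 and adjusted p of 0.00122 to 0.0264. In Myd88KO tracheas array weights called 1 member in place of 0 (Ctss). The slide is the replicate number, so a separate slide block was not run. The replicate block changed no other call of a member.

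Over all probes the 1346 calls of wild-type injury became 2093 with scan day as a block, 2590 with array weights, 3281 at an adjusted p under 0.05 and 666 to 1201 without single arrays. The 97 of Myd88KO injury became 59 without a filter, 149 with the replicate block, 388 with scan day, 1945 with array weights, 865 at 0.05, 0 with only the groups compared, 0 by the one-way test, and 6 to 1089 without single arrays, the last without injured replicate 5. The 98 of the uninjured genotypes became 176 with array weights, 61 with the strict filter, 149 at 0.05 and 48 by the one-way test, and the 99 of the injured genotypes became 63, 173, 37 and 22 with the strict filter, at 0.05, with only the groups compared and by the one-way test. The difference between responses gave 0 calls, and 1 with the replicate block, 2 with scan day and 3 with array weights. Wild-type injury gave 811 calls up and 535 down, and 992 and 418 with median centring. Myd88KO injury gave 34 and 63, and 52 and 60 with normexp. The number of arrays and the 2 missing Ctss values limit the precision.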
